A study of Rattus norvegicus with 19 samples.

Results

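Among the genes of the paraventricular nucleus (PVN), 64 had lower values in every library of the Spontaneously Hypertensive Rat (SHR) than in any Wistar library. They were chosen from the deposited counts, scaled to CPM (the count of a gene divided by the total of its library and multiplied by 1000000). A gene was a member when it had at least 1 CPM in all 9 Wistar libraries and when its lowest Wistar value was at least 1.1 times its highest value among the 10 SHR libraries. Of 30560 genes in the table, 13686 had at least 1 CPM in all Wistar libraries, and the 64 members were 0.468% of these. The strain difference of the members is therefore what selected them, and no test of it is read as evidence. The table lists genes by Ensembl identifier only and pairs none with a symbol, a chromosome or a function, so the members are identified by their rank in ratio (rank 1 being the largest ratio of the Wistar mean to the SHR mean), and the identifiers of 2 of them are given.

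The PVN integrates signals on stress, fluid balance and blood pressure, and its neurons drive sympathetic outflow and release vasopressin and oxytocin. SHR is an inbred strain in which hypertension develops without treatment. Wistar is an outbred stock, so that Wistar animals differ genetically from one another while SHR animals are close to identical. In RNA from tissue punches, a lower level of a transcript may come from less RNA per cell or from fewer cells of a type, and these cannot be told apart.

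The libraries were of polyadenylated RNA from bilateral PVN punches of rats aged 14 weeks that had carried blood pressure telemetry probes, with 1 rat per library, and the females had been recorded in dioestrus. Males gave 4 Wistar and 5 SHR libraries, females gave 5 of each strain, and the labels name no treatment. The strains differ in their whole genetic background as well as in blood pressure, and the 2 cannot be told apart in this design. Library totals lay between 44943945 and 58793511 counts. The labelled tissue could not be checked against marker genes for want of symbols.

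The members differed widely in size. The ratio of the mean Wistar CPM to the mean SHR CPM ran from 1.30 to 14.5, with a median of 2.21 and the middle of the list between 1.75 and 3.47. It was at least 8 in 4 members, from 4 to under 8 in 7, from 2 to under 4 in 26, from 1.5 to under 2 in 21 and under 1.5 in 6. Most members were thus lower in part, and 27 of the 64 had a ratio under 2.

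**Figure D1:**
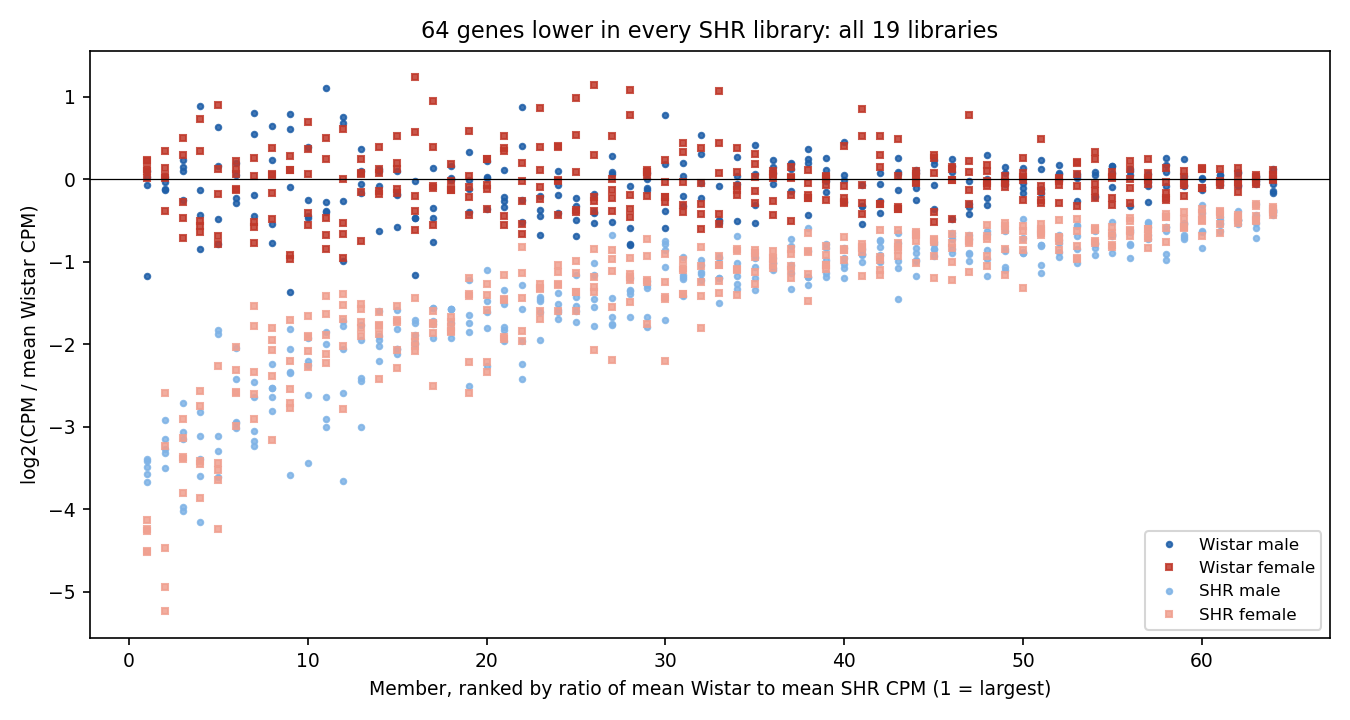
Values of the 64 members in all 19 libraries, as log2 of CPM over the mean Wistar CPM of the same gene (vertical axis), against the rank of the ratio (horizontal axis), with Wistar in dark and SHR in light symbols, circles for males and squares for females. SHR values lie under all Wistar values of the same gene throughout, at 14.5 times below by mean for rank 1 and 1.30 times for rank 64, since the rule required it.

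ENSRNOG00000055608 had the largest ratio. Its CPM was 52.2, 22.8, 49.0 and 55.1 in Wistar males 2 to 5 and 60.1, 60.4, 56.1, 52.0 and 55.1 in Wistar females 1 to 5. In SHR it was 4.05, 4.58, 4.84, 4.91 and 4.31 in males 1 to 5 and 2.68, 2.74, 2.26, 2.95 and 2.24 in females 1 to 5. The strains were far apart, the lowest Wistar value being 4.64 times the highest SHR value, although that lowest value, in Wistar male 3, stood well under the other Wistar libraries. The means were 44.8 ± 14.9 CPM (SD, n = 4) in Wistar males, 4.54 ± 0.361 CPM (SD, n = 5) in SHR males, 56.7 ± 3.53 CPM (SD, n = 5) in Wistar females and 2.57 ± 0.311 CPM (SD, n = 5) in SHR females. The ratio of means was 9.86 in males and 22.1 in females. Over both sexes the SHR mean was 6.92% of the Wistar mean.

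The members ranked 2 to 5 had far fewer reads. The member of rank 2 lay between 2.08 and 3.46 CPM in Wistar (100 to 165 counts) and between 0.0724 and 0.453 CPM in SHR (4 to 24 counts). Its Wistar libraries were alike, whereas 3 of the 5 SHR females were below all other SHR libraries. Rank 3 ranged from 2.57 to 5.96 CPM in Wistar and from 0.260 to 0.642 CPM in SHR. For rank 4 the Wistar range was 1.34 to 4.47 CPM and the SHR range 0.136 to 0.411 CPM, and for rank 5 they were 1.37 to 4.38 and 0.125 to 0.665 CPM. In ranks 4 and 5 the Wistar values were widely spread, with males and females overlapping. The ratios of means were 10.9, 9.78, 9.39 and 7.28 in ranks 2 to 5.

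**Figure D2:**
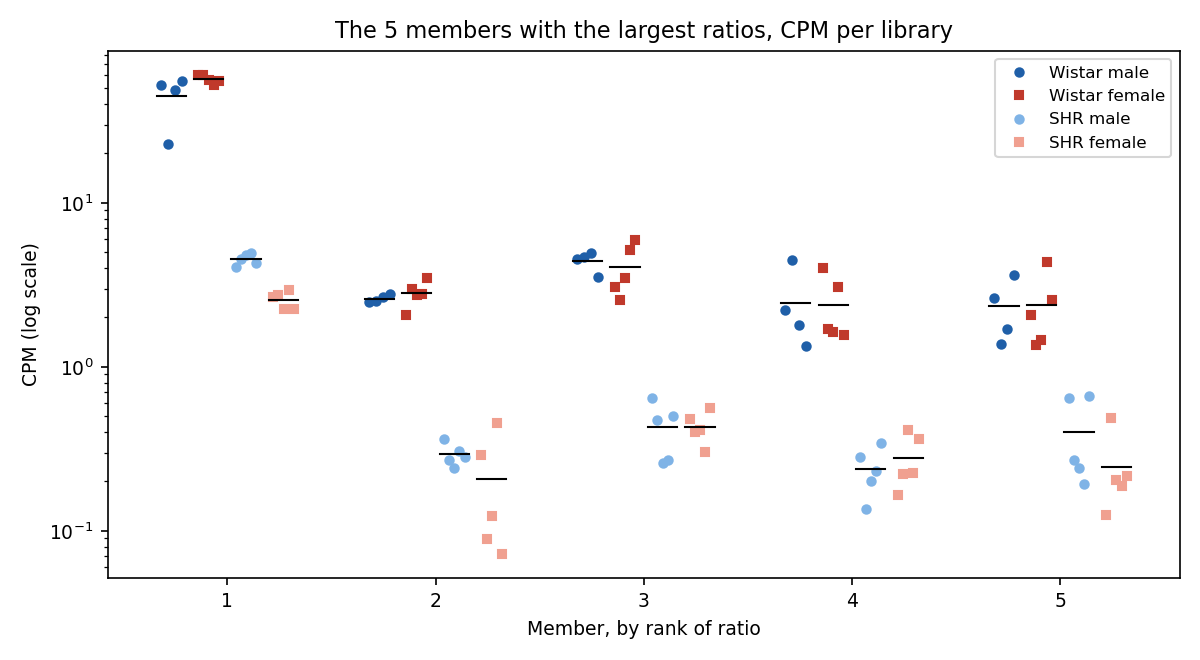
CPM per library (log axis) for the 5 members with the largest ratios, with Wistar males, Wistar females, SHR males and SHR females from left to right within each rank, 1 symbol per library and a black line at each group mean. The groups of the 2 strains do not overlap in any of them, and in rank 1 the SHR females (2.24 to 2.95 CPM) lie under the SHR males (4.05 to 4.91 CPM).

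Ranks 6 to 15 held members with mean Wistar values from 1.84 to 6.89 CPM and ratios from 5.81 down to 3.67. The member of rank 6 was the most even of these in Wistar, at 2.04 to 2.87 CPM, and lay between 0.306 and 0.605 CPM in SHR. Its lowest Wistar value was 3.37 times its highest SHR value, the widest gap of ranks 6 to 15. By contrast, the member of rank 9 was between 1.102 and 4.91 CPM in Wistar and between 0.238 and 0.869 CPM in SHR. Its ratio of means was 5.00, yet the lowest Wistar value was only 1.27 times the highest SHR value.

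No member was silent in SHR. By the limit set for near-silence, under 0.2 CPM in all 10 SHR libraries, the count was 0 of 64, and no member had a count of 0 in any SHR library. The smallest count was 4, in SHR females 2 and 5 for the member of rank 2. Under a limit of 0.5 CPM in all SHR libraries there were 2 members, those of ranks 2 and 4, and under 1 CPM, a limit added after seeing the data, there were 11. In these sparse genes the SHR value rests on few reads.

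Among the members, large ratios were mostly found in genes with few reads. Because the rule asks for a gap between the strains, a gene with wide spread could be chosen only with a larger ratio. Spread was larger in the sparsest members, so the choice itself may give this pattern. Ratios of genes outside the members were not compared by level, so no relation of ratio to level beyond the members is drawn. CPM is not divided by gene length, so it orders the members by reads and not by transcripts. Of 38 members under 10 CPM in Wistar, 10 had a ratio of at least 4 and the median ratio was 2.55. Of 26 members at 10 CPM or more, 1 had such a ratio, ENSRNOG00000055608, and the median was 1.78. The median of the mean Wistar values was 8.20 CPM over the members and 29.0 CPM over the 13686 genes that could have been chosen.

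The member with the most reads was ENSRNOG00000018700, of rank 16 in ratio. Its CPM was 773, 1058, 777 and 481 in Wistar males 2 to 5 and 2528, 938, 820.3, 1594 and 699 in Wistar females 1 to 5. In SHR males 1 to 5 it was 269, 289.6, 321, 271 and 329, and in SHR females 1 to 5 it was 275, 265, 397, 254 and 288. The Wistar libraries were widely spread, with a coefficient of variation (the SD as a percentage of the mean, pooled over the sexes) of 46.2%, and the SHR libraries were closer together, at 15.4%. The ratio of means was 2.61 in males and 4.45 in females, where Wistar females 1 and 4 were far above the others. Its lowest Wistar value was 1.21 times its highest SHR value, where the median over the members was 1.25.

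The member with the second most reads, of rank 41, had a like pattern at a smaller size. It lay between 284 and 745 CPM in Wistar, with females 1 and 4 at the top, and between 184 and 241 CPM in SHR. Its ratio was 2.14 in females and 1.52 in males. For this gene the strain by sex interaction (log2 of SHR over Wistar in females less the same in males) was -0.58 (standard error 0.28) with an adjusted p of 0.374 in edgeR, and that of ENSRNOG00000018700 was -0.86 (standard error 0.42) with an adjusted p of 0.379. Neither was called.

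A wide gap was also found at a moderate level. At rank 18 a member had between 27.2 and 34.0 CPM in Wistar and between 7.88 and 10.1 CPM in SHR. Its strains were separated by a gap of 2.70, its coefficient of variation was 8.04% in Wistar and 8.23% in SHR, and its ratio was 3.28 in males and 3.33 in females.

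Some of the other members with many reads had small ratios and little spread, whereas those of ranks 45 and 47, with the fifth and ninth most reads, had coefficients of variation in Wistar of 21.9% and 23.7%. That of rank 61 had 188 to 215 CPM in Wistar and 126 to 152 CPM in SHR, a ratio of 1.42, with a coefficient of variation of 4.74% in Wistar and 6.34% in SHR. The last in rank, 64, had 102 to 125 CPM in Wistar and 84.7 to 90.3 CPM in SHR. Its ratio of 1.30 was the smallest of the members, and its coefficient of variation was 7.14% in Wistar and 2.11% in SHR.

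The gap between the strains was mostly narrow. The lowest Wistar value was between 1.11 and 4.64 times the highest SHR value, with a median of 1.25. It was at least 3 times in 5 members, at least 2 times in 9, at least 1.5 times in 19 and under 1.2 times in 28. The 5 members nearest the threshold had gaps of 1.11 and ratios of means from 1.58 to 3.00. The 5 genes just outside it had gaps from 1.09 to just under the threshold of 1.1 and ratios from 1.23 to 2.00. A further 95 genes had no overlap between the strains but a gap under 1.1.

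Each library was left out of the choice in turn. With 1 library left out, the rule chose between 64 and 83 genes. These choices hold all 64 members by construction, so the share that still met the rule with the library put back was 64 of the number chosen, between 77.1% and 100% with a median of 92.8%. In the library left out, between 88.0% and 100% of the genes chosen lay on its strain's side of all libraries of the other strain. The 64 members are on that side by construction, so only the genes chosen beyond them could lie elsewhere. SHR female 5 was the library on which membership depended most. Without it 83 genes were chosen, and in it 73 of them, including the 64 members, lay under all Wistar libraries. SHR male 1 and SHR female 4 added no restriction, as leaving out either gave the same number of 64. The highest SHR value of a member was in a female library in 42 cases and in a male library in 22, and SHR female 5 held it in 13. The same counts over all genes are not given here. Over the genes that could have been chosen, the median log2 ratio of Wistar to SHR was 0.05 in males and -0.02 in females. Among Wistar libraries, female 1 was the lowest in 14 members and the highest in 18, the most on both sides. Female 5 was the lowest in 1 and the highest in 6. These counts over all genes are likewise not given.

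The sexes were compared by the size of the strain difference in each, since males and females have no library in common. The log2 ratio of the Wistar mean to the SHR mean had a median of 1.09 in males, with a range from 0.34 to 3.36, and of 1.12 in females, with a range from 0.41 to 4.46. Over the 13686 genes with at least 1 CPM in all Wistar libraries, the medians were 0.05 and -0.02. The difference of the 2 log2 ratios was under 0.25 in 37 members, under 0.5 in 50 and over 1 in 2, and its median size was 0.21. By CPM the log2 ratio was larger in females in 28 members and in males in 36. The sign of the interaction in edgeR gave the other order, with the larger reduction in females in 36 and in males in 28. Which sex had the larger ratio more often thus depended on the measure. Across the members, which are not independent replicates, Pearson's r between the sexes was 0.868 and Spearman's rho 0.853 (n = 64 genes). This is a description, as the rule chose genes lowered in both.

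**Figure D3:**
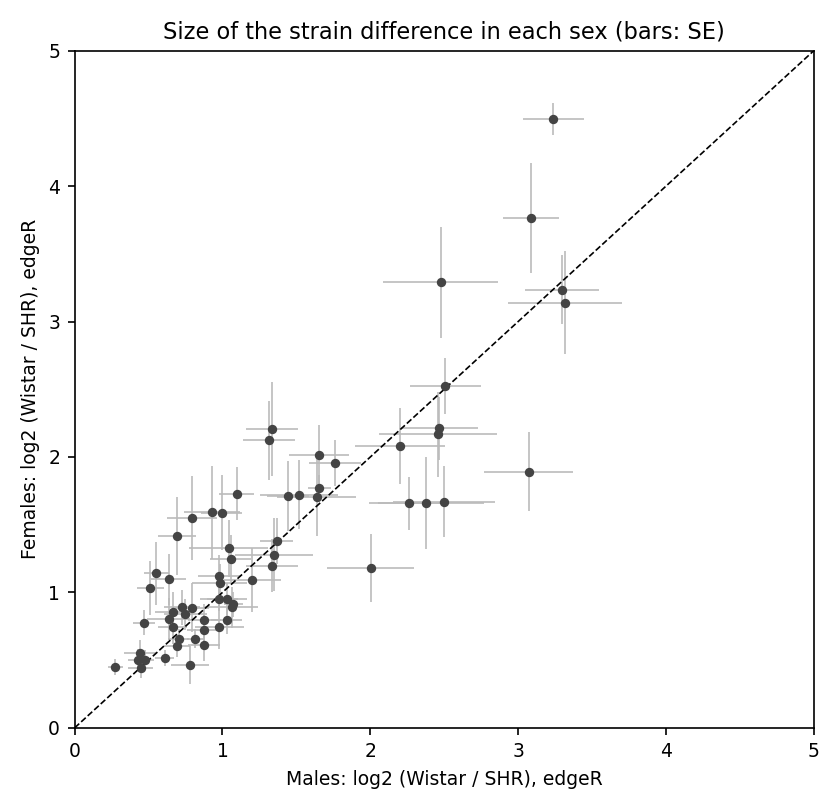
Strain difference of each of the 64 members as the log2 ratio of Wistar to SHR fitted by edgeR, in males (horizontal axis) and females (vertical axis), with bars for the standard errors and a dashed line of equal size. Points scatter about the line, and by CPM the log2 ratios of the sexes differed by over 0.5 in 14 members and by over 1 in 2. The point at the top is ENSRNOG00000055608, above the line at 3.24 in males and 4.50 in females.

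All 64 members were above the expression filter in each fit. With edgeR's quasi-likelihood test and a Benjamini-Hochberg adjusted p under 0.05, 64 of them were called lower in SHR males, where 6.9% of all genes tested were called lower. In SHR females 63 were, against 1.42% of all genes tested. With DESeq2 all 64 were called in both, against 9.53% of all genes in males and 3.83% in females. The member not called in females by edgeR was that of rank 58. The rule chose the members on these same values, so the counts only describe the choice and are not evidence of a strain difference.

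Whether the strain difference differed between males and females was tested by an interaction term of strain with sex in a fit of all 19 libraries. The rule bounds this difference but does not choose by it. With edgeR, 0 of 64 members passed the adjusted threshold, as did 0% of all 17432 genes tested, and 8 members (12.5%) had an unadjusted p under 0.05, against 13.4% of all genes. At the same unadjusted threshold DESeq2 gave 12 members (18.8%), against 14.5% of all genes. With DESeq2, 1 member passed, ENSRNOG00000055608, against 0.275% of all genes. Its interaction was -1.25 on the log2 scale (standard error 0.25), which stands for a larger reduction in females. The adjusted p was 0.144 with edgeR and 0.00169 with DESeq2, and over all alternatives it lay between 0.00169 and 0.397. Without Wistar male 3, the low Wistar library, the edgeR estimate was -1.03 with an adjusted p of 0.00698.

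The largest difference between the sexes in the other direction was in the member of rank 7. Its ratio of means was 8.82 in males and 3.68 in females. The interaction was 1.18 (standard error 0.42), with an unadjusted p of 0.0115 and an adjusted p of 0.323 in edgeR, so it was not called over all genes tested. This gene had a mean of 1.98 ± 0.788 CPM (SD, n = 9) in Wistar and 0.361 ± 0.158 CPM (SD, n = 10) in SHR. The members of ranks 22, 11 and 12 came next to these in the size of the difference. All 3 had larger ratios in males, at 4.19, 5.94 and 5.34, than in females, at 2.22, 3.18 and 3.05, and their adjusted p-values for the interaction in edgeR were 0.376, 0.417 and 0.550. At the other end, the member of rank 35 had a ratio of 2.06 in males and 2.06 in females.

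Differences between females and males within a strain were tested as a contrast that the rule did not use. The rule limits the spread within a strain, so it bounds these differences although it does not choose by them. In Wistar, 0 of 64 members passed with edgeR or with DESeq2, where 0.0629% of 17490 genes were called with edgeR and 0.114% with DESeq2. At an unadjusted p under 0.05 there were 5 members (7.81%) with edgeR and 7 (10.9%) with DESeq2, against 4.08% and 4.75% of all genes. The largest sex difference of a member in Wistar was 0.91 on the log2 scale, and the median size was 0.14 with a median standard error of 0.19.

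In SHR, 1 of 64 members differed by sex, again ENSRNOG00000055608, where 0.0694% of 17285 genes tested were called with edgeR and 1.75% with DESeq2. Its level was lower in SHR females than in SHR males by a log2 fold change of -0.86 (standard error 0.12), with an adjusted p of 0.00926 in edgeR's quasi-likelihood test and 1.65e-08 in DESeq2. With the replicate number as a block the log2 fold change was again -0.86, but the adjusted p was 0.0662 and the call was lost. The 5 females and the 5 males did not overlap. In Wistar the same comparison gave a log2 fold change of 0.39 (standard error 0.21), with an adjusted p of 0.909 in edgeR. At an unadjusted p under 0.05 there were 6 members (9.38%) in SHR, against 14.9% of all genes, with edgeR, and 5 (7.81%) against 15.8% with DESeq2.

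The members also varied within each strain. Their coefficient of variation, pooled over the sexes, had a median of 20.1% in Wistar and 14.3% in SHR. Over the 13505 genes with at least 1 CPM in all 19 libraries the medians were 10.9% and 8.66%. The spread was smaller in SHR than in Wistar in 43 members (67.2%), against 69.2% of these genes, and the median ratio of the SHR to the Wistar value was 0.796 in the members and 0.798 in these genes. By these medians the members had the larger spread in both strains, while the relation of SHR to Wistar was close to that of these genes. The sets were not matched for reads, and 15 members had a mean under 1 CPM in SHR, which the filter on these genes excludes. The relation of SHR to Wistar also differed between sparse and other members, as given below. The rule limits how large the spread of a member can be, so these values are not tested.

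Reads were sparse in some members, and spread went with that. In the 15 members with a mean under 1 CPM in SHR, the median coefficient of variation was 32.7% in SHR and 27.2% in Wistar, and 8 had the smaller value in SHR. In the other 49 it was 11.7% in SHR and 19.1% in Wistar, and 35 had the smaller value in SHR. The part of counting error in this was not tested. The steadiest member in Wistar, of rank 63, lay between 19.5 and 20.9 CPM there, a coefficient of variation of 2.98%, and between 12.3 and 16.5 CPM in SHR. The most variable, of rank 11, lay between 1.66 and 6.41 CPM in Wistar, at 52.1%.

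**Figure D4:**
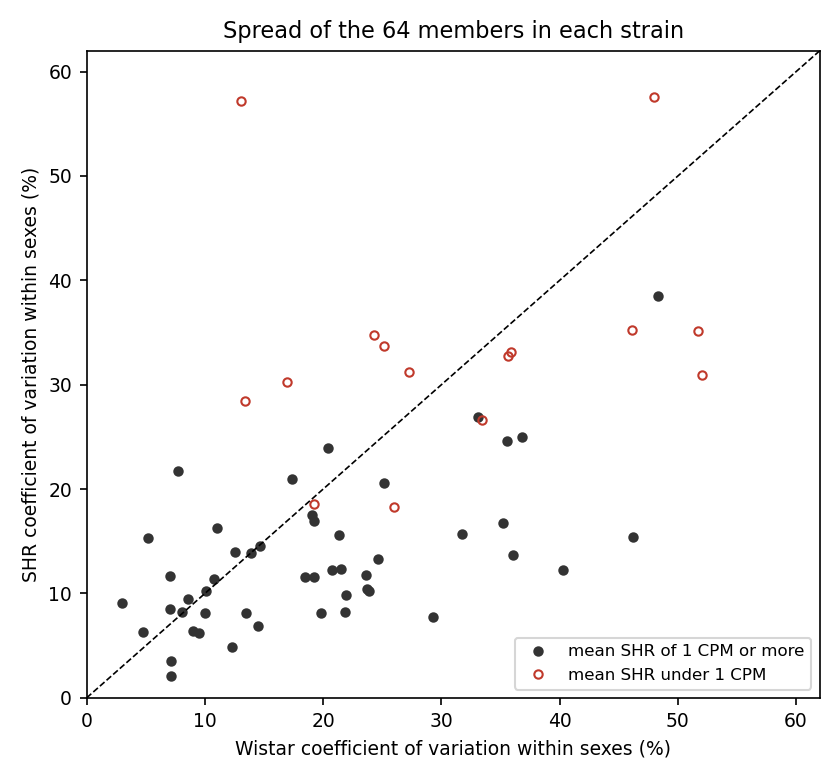
Coefficient of variation of each member between libraries, pooled over the sexes, in Wistar (horizontal axis, %) and SHR (vertical axis, %), with a dashed line of equal spread and open symbols for the 15 members with a mean under 1 CPM in SHR. Of the 64 members, 43 lie below the line.

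The same pair of Wistar animals was highest in several members. In 11 members the pair of highest Wistar libraries was female 1 and female 4, which is 17.2% of the members and 2.97% of the 13686 genes that could have been chosen. This group was noticed in the values and is given without a test. ENSRNOG00000018700 was one of them, and their mean Wistar levels ran from 7.13 to 1074 CPM. Wistar female 1 was between 1.34 and 3.19 times the mean of the other 7 Wistar libraries in these genes, and Wistar female 4 between 1.27 and 2.34 times. With both libraries left out, the ratio of Wistar to SHR in the 11 members was between 1.54 and 2.81, where it had been between 1.65 and 3.63. Both libraries are female, so choosing genes by them raises the female ratio by construction, and the ratios of the sexes are not compared for this group.

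**Figure D5:**
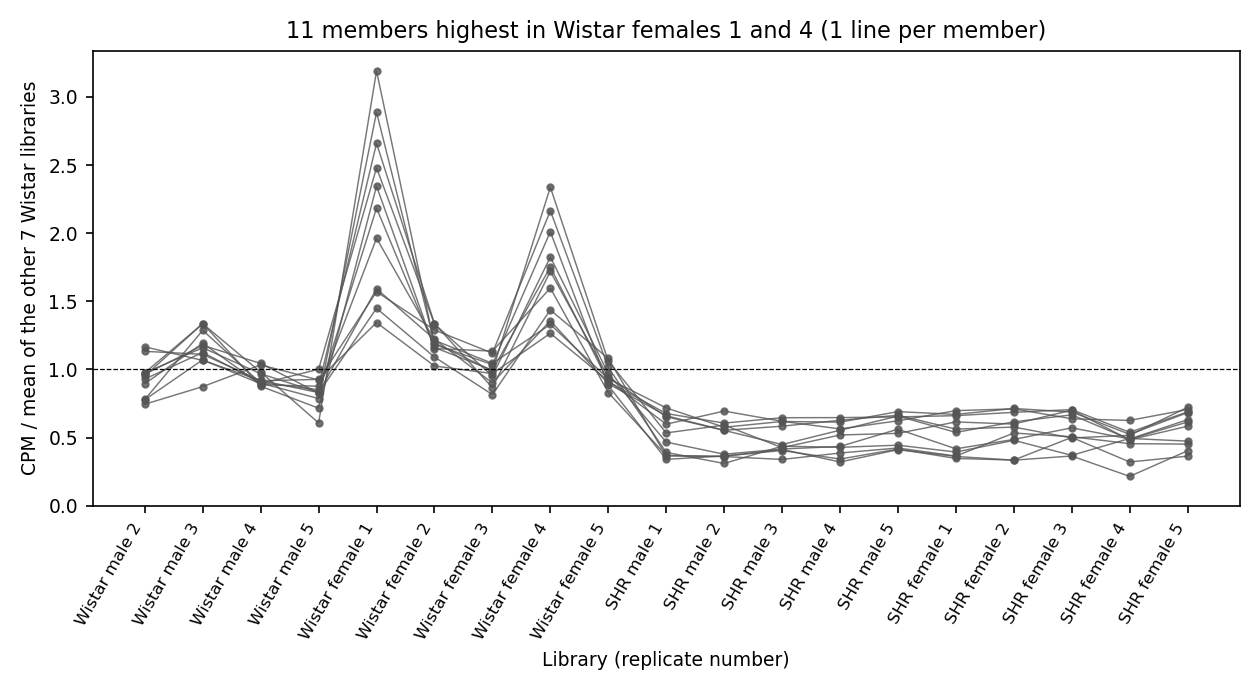
CPM of 11 members in each of the 19 libraries, divided by the mean of the gene in the 7 Wistar libraries other than females 1 and 4 (vertical axis), with 1 line per member. Wistar females 1 and 4 stand above the other Wistar libraries, at up to 3.19 and 2.34, and all SHR libraries lie under all Wistar libraries of the same gene.

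The order of rows in the table was examined for members that stand side by side, although the sources do not say that this order follows the genome. Among the 13686 genes that could have been chosen, 0 of the 64 members stood next to another member, and 0.935% of these genes stood next to one. Within 10 rows there were 5 members (7.81%), against 8.88% of these genes.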

How the data were processed

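RNA of PVN punches was measured in 19 libraries. The authors used Trimmomatic (Phred score 30) for trimming, STAR for alignment to the Rn7 build and featureCounts for counting, and the deposited values are raw counts per gene; versions, annotation and counting settings are not given in the sources used here. Of the values from 1 to 100 in the table, 73.9% were even, so a pair may have been counted as 2 reads and the reads behind a value be fewer. Each column was matched to a sample by library name.

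CPM used column totals, with no other normalization. Members were found by the rule stated in the report; members and lists were chosen with earlier results of these data known. The tests were edgeR 4.0.16 quasi-likelihood fits (R 4.3.3) on TMM-normalized counts of genes with a mean above 5 normalized counts, adjusted by the Benjamini-Hochberg method over all genes tested at 0.05, with only the groups compared in a fit and all 4 groups for the interaction. DESeq2 1.42.0 was the alternative; the authors used another version of DESeq2 and a Bonferroni correction. The fits and the rule were run on simulated data as a check of the code only. The changed genes there had more reads than the sparsest members and less spread than many members. For the rule they also had a larger ratio than most members. No error rate for the members is drawn from this. The standard errors given for edgeR were not estimated by the fit. Each was worked back as the size of the log2 fold change over the square root of its F statistic. Other values came from Python 3.11.15, pandas 2.3.3 and scipy 1.17.1.

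Because 1 rat gave 1 library, p-values measure the spread between rats. Of the 30560 identifiers, 0 matched the reference gene table, so marker lists, gene families, distances on chromosomes and promoter sequences were not used here. Members to be described were fixed as those with the largest ratios, most reads, widest and narrowest gaps, largest sex differences, extreme spread and test calls. Without symbols, 2 are given by identifier and the others by rank or as counts. Alternatives changed the scaling, limits, margin, tool, filter, fit, replicate block and libraries; limits of 1 CPM, a margin of 1.25 and the window of 10 rows were added after seeing the data.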

Additional observations from a re-analysis of the deposited data

Results flagged for a closer look

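Among 10 members, namely the 5 with the largest ratios, the 3 with the most reads and the 3 with the largest sex differences (1 counted under 2 of these), each of the 4 groups was examined for a library far from the rest of its group, which chance finds in about 1 in 20 groups, and 4 of 40 groups had one. ENSRNOG00000018700 was at 397 CPM in SHR female 3, where the other SHR females lay between 254 and 288. The member of rank 41, with the second most reads, was at 184 CPM in SHR female 4, where the others lay between 225 and 241. For the member of rank 61, Wistar female 2 was at 215 CPM, where the other Wistar females lay between 189 and 194. The member of rank 5 was at 0.489 CPM in SHR female 2, where the other SHR females lay between 0.125 and 0.217.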

How the results depend on the processing

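The number of members, 64, was 61 with TMM or median-of-ratios scaling, 56 of them shared with the 64 under each. It was 36 with a minimum of 5 CPM, 159 with a margin of 1.0, 33 with 1.25 and 19 with 1.5, so it depended on the margin, and it lay between 64 and 83 with each library left out. The 0 near-silent members became 2 at a limit of 0.5 CPM and 11 at 1 CPM, and between 0 and 1 with each library left out (1 without Wistar male 3). The median log2 ratio stayed between 1.06 and 1.15 in males and between 1.07 and 1.16 in females with each library left out. With TMM scaling it was 1.02 in males and 1.15 in females. Members with the larger reduction in females, 28 by CPM, were 36 by the sign of the edgeR interaction. The interaction count of 0 was 1 with DESeq2 and between 0 and 1 with each library left out (1 without Wistar male 3). Members next to another in the table, 0, were 5 within 10 rows.

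Samples share replicate numbers. Deviations of same-numbered samples correlated between -0.392 and 0.597, and above 0.1 in 11 of 18 pairs. Replicate 5 was positive in every pair of groups, from 0.277 to 0.597, whereas replicates 2, 3 and 4 had both signs. As the correlations were not above 0.1 in every pair, the numbers were not taken to pair animals in the main fits. Whether some numbers share a batch was not tested. With the replicate block, 0 members differed by sex in SHR in place of 1, as ENSRNOG00000055608 had an adjusted p of 0.0662 with its log2 fold change still at -0.86. The sex difference of ENSRNOG00000018700 in SHR, -0.03 on the log2 scale and not called, was between -0.17 and 0.02 with each library left out and changed sign to 0.0019 without SHR female 2 and 0.018 without SHR female 4. Members called lower in SHR females, 63 with edgeR, were between 50 and 63 with each library left out and 58 with the replicate block. The remaining results kept their direction and their calls, or moved a count by at most 1.5 times, under the alternatives run. Distances of 0.5 and 2 Mb could not be run without chromosomes. Counts of 4 to 24 in SHR limit the ratios of the sparsest members.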
